A study of Sus scrofa with 12 samples.

Results

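The miR-181 family of microRNAs (miRNAs) was followed in the uterus of newborn and 50 h old gilts, young female pigs. Its members were the table rows whose name is miR-181a, miR-181b, miR-181c or miR-181d with any arm or locus suffix, which are 7 of the 420 rows. They carry 5 names: ssc-miR-181a with 2 precursor rows, miR-181b with 2, and miR-181c, miR-181d-5p and miR-181d-3p with 1 each. The species prefix ssc, for Sus scrofa, is left out below. Small RNA was sequenced from 12 crossbred gilts (Landrace, Yorkshire, Duroc and Hampshire), 4 in each of 3 groups. In the PND2R group a commercial replacer stood in for milk over 48 h. In the PND2N group the gilts suckled at will over the same 48 h. Both groups were sampled 50 h after birth (postnatal day 2). PND0 gilts, on postnatal day 0, were sampled no later than 1 h after birth, before any nursing. PND2R against PND2N asks about nursing at 1 age. PND2 against PND0 asks about age, which cannot be told apart here from the 48 h of feeding that both PND2 groups had.

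miRNAs are short RNAs that pair, mainly through a seed near their 5′ end, with messenger RNAs and lower their translation or stability. The miR-181 members share 1 seed and are therefore expected to reach overlapping targets, so the summed level of the family and the level of each member are both of interest. In mouse, miR-181a is known for setting how strongly thymocytes respond through the T cell receptor, and miR-181b for restraining inflammatory NF-κB signalling in endothelium. In rat heart, miR-181c is known for acting on a transcript inside mitochondria, and in human glioma miR-181d for lowering a DNA repair enzyme. The pig genes lie in pairs: in the RefSeq gene table of the Sscrofa11.1 assembly, used here only for names and neighbours, the 6 family genes form 3 neighbouring pairs. These are MIR181A-1 with MIR181B-1, MIR181A-2 with MIR181B-2, and MIR181C with MIR181D.

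The libraries held 37462 to 12159233 miRNA reads, and 4 of them, 3 PND2R and 1 PND2N, held under 100000. Levels are given in rpm, reads per 1000000 miRNA reads of the library. In the shallowest library, PND2N replicate 2, 1 read is worth 26.7 rpm. Smooth muscle and mesenchymal miRNAs, a check of the labelled tissue, summed to 333546 to 349017 rpm in PND2R, 302822 to 379825 in PND2N and 269354 to 317136 in PND0. This sum takes all 11 precursor rows of the list, so reads shared by the paired rows of miR-199a count again. Tissue of a whole uterus was sequenced, in which fewer cells of a type and less of a miRNA per cell cannot be told apart.

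Of the 7 rows, 6 were above the floor of the table in all 12 libraries and were tested. The seventh, miR-181d-3p, the arm opposite miR-181d-5p on the same precursor (MI0013108), was at the floor in every library. Its upper limit, by 3 reads for a count of 0, is 80.1 rpm in the shallowest library. In the deepest library the floor itself hides up to 12 reads.

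The paired rows of miR-181a and of miR-181b are close to being the same measurement. In miR-181a the row of precursor MI0013106 held fewer reads than that of MI0010686 in 12 of 12 libraries, by at most 0.331%. In miR-181b the rows of MI0013107 and MI0002420 differed by at most 1.11% in either direction. Reads of 1 mature miRNA thus appear in both rows, and the rows do not tell which gene pair they came from. Sums over the family below use 1 row per name, the one with the higher mean (MI0010686 for miR-181a and MI0013107 for miR-181b). The library totals keep all rows, so the family's share is lower than with each read counted once.

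By 1 row per name, the family took 1.31% ± 0.185 (SD, n = 4) of the miRNA reads summed over all rows in PND2R, 1.33% ± 0.275 in PND2N and 1.63% ± 0.240 in PND0. It ranged from 1.04% to 1.47% in PND2R, from 1.03% to 1.59% in PND2N and from 1.40% to 1.95% in PND0, so all 3 groups overlapped. miR-181a made up most of it, at 79.6% ± 3.86 of the family's reads in PND2R, 80.2% ± 1.35 in PND2N and 80.4% ± 1.35 in PND0. miR-181b followed with 15.3% ± 2.68 in PND2R, 16.0% ± 1.06 in PND2N and 15.9% ± 1.48 in PND0. miR-181d-5p held 3.40% ± 0.862 in PND2R, 2.86% ± 0.354 in PND2N and 2.50% ± 0.220 in PND0. miR-181c held 1.72% ± 0.471 in PND2R, 0.980% ± 0.111 in PND2N and 1.22% ± 0.257 in PND0. The order miR-181a, miR-181b, miR-181d-5p, miR-181c held in all 12 libraries.

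**Figure D1:**
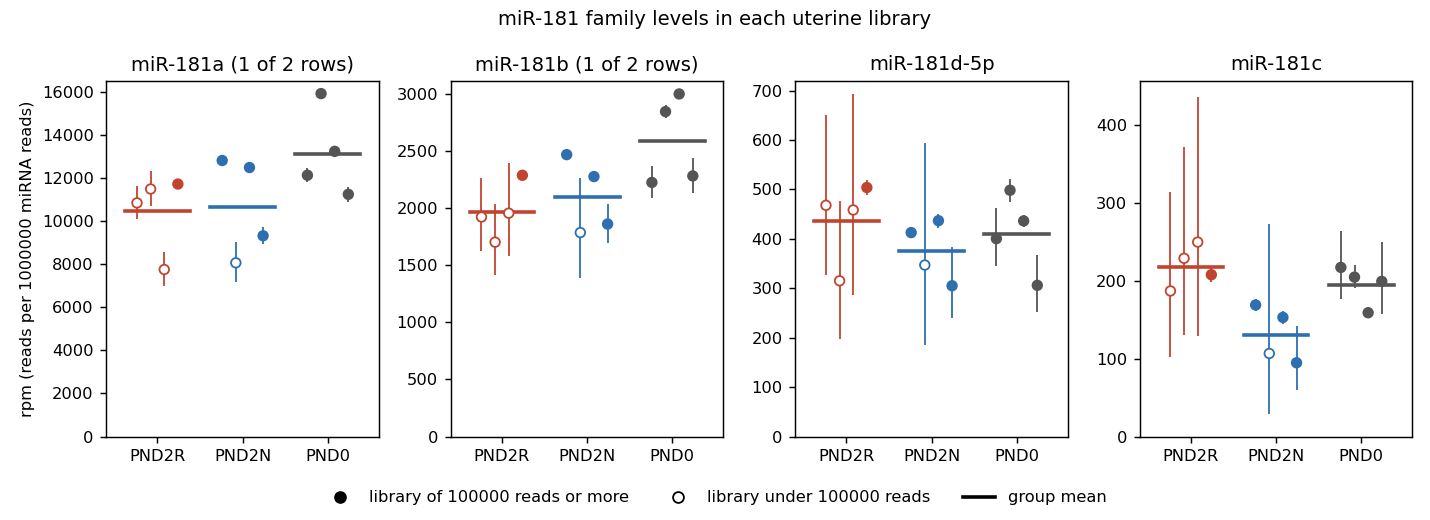
Levels of the 4 expressed miR-181 names in each library, in rpm, with the exact 95% interval of the counts (Clopper-Pearson) as a thin line and the group mean as a thick one. Open points are libraries under 100000 reads. For miR-181c every PND2R library (187 to 250 rpm) lies above every PND2N library (94.8 to 169 rpm), while the groups overlap for the other 3 names.

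Among the 268 rows tested, miR-181a stood between rank 18 and rank 26 in the 12 libraries by its more abundant row. It measured 10842, 11487, 7751 and 11717 rpm in PND2R replicates 1 to 4. In PND2N it measured 12810, 8061, 12485 and 9318 rpm, and in PND0 12126, 15915, 13234 and 11240 rpm. The highest library was a newborn one and the lowest were the shallowest library of each PND2 group, and the groups overlapped. Means were 10450 ± 1837 rpm in PND2R, 10668 ± 2346 in PND2N and 13129 ± 2029 in PND0 (SD, n = 4 each).

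miR-181b, encoded beside miR-181a at both of its gene pairs, ranked 44 to 57. Its levels by the more abundant row were 1925, 1704, 1959 and 2291 rpm in PND2R. They were 2472, 1788, 2280 and 1864 rpm in PND2N, and 2228, 2849, 3004 and 2285 rpm in PND0. PND2R replicate 4 lay above PND0 replicates 1 and 4, and the other 3 PND2R libraries lay below every PND0 library. Means were 1970 ± 242 rpm in PND2R, 2101 ± 329 in PND2N and 2592 ± 393 in PND0. Across the 12 libraries the log2 levels of miR-181b and miR-181a had a Pearson correlation of 0.754. The points share the scaling of each library, and the correlation is given as a description.

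miR-181d-5p ranked 90 to 103. It measured 468, 315, 458 and 504 rpm in PND2R, 413, 347, 437 and 305 rpm in PND2N, and 400, 498, 436 and 306 rpm in PND0. The lower ends of the 3 ranges nearly coincided and the groups overlapped, with the PND2R library above the PND2N one in 13 of 16 pairs. The shallow libraries held only 13 to 35 reads of it, which sets wide counting intervals (185 to 593 rpm for the 13 reads of PND2N replicate 2).

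miR-181c, the neighbour of miR-181d, ranked 106 to 133 and was the least abundant member above the floor. It measured 187, 229, 250 and 208 rpm in PND2R. It measured 169, 107, 153 and 94.8 rpm in PND2N, and 217, 205, 159 and 200 rpm in PND0. Every PND2R library was above every PND2N library, and 15 of 16 pairs had the PND0 library above the PND2N one. Its means were 219 ± 27.1 rpm in PND2R, 131 ± 35.8 in PND2N and 195 ± 25.2 in PND0. Few reads stand behind the shallow values: 14, 16 and 12 in PND2R replicates 1 to 3 and 4 in PND2N replicate 2, whose exact 95% interval runs from 29.1 to 273 rpm. The deep libraries carry more: 1955 reads in PND2R replicate 4 gave 199 to 218 rpm, and 1997 and 1287 reads in PND2N replicates 1 and 3 gave 162 to 177 and 145 to 162 rpm. These intervals cover counting error only. The interval of the 1 deep PND2R library lay above those of both deep PND2N libraries. Animals of 1 group could also have separate intervals: the deep PND0 replicates 2 and 3 had 205 rpm (190.4 to 220.4) and 159 rpm (152 to 166).

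Ratios between members within a library do not depend on how the library was scaled. There were 1.73, 2.00, 3.23 and 1.78 reads of miR-181c per 100 of miR-181a in PND2R. There were 1.32, 1.32, 1.23 and 1.02 in PND2N, and 1.79, 1.29, 1.20 and 1.78 in PND0. As for its level, the PND2R ratios all lay above the PND2N ratios, and those of PND0 overlapped with both. The ratio rests on the same miR-181c reads as the level, 12 to 16 in PND2R replicates 1 to 3 and 4 in PND2N replicate 2. Per 100 reads of miR-181b, miR-181c had 9.08 to 13.4 reads in PND2R, 5.09 to 6.84 in PND2N and 5.30 to 9.76 in PND0. Against its neighbour miR-181d-5p all groups overlapped, PND2R and PND2N only slightly. There were 40.0 to 72.7 reads of miR-181c per 100 of miR-181d-5p in PND2R, 30.8 to 41.0 in PND2N and 36.5 to 65.2 in PND0. In the deep libraries this ratio was 41.3 in PND2R replicate 4, and 41.0 and 35.1 in PND2N replicates 1 and 3. The ratio of miR-181b to miR-181a had nearly the same mean in the 3 groups, at 19.4 ± 4.40 reads per 100 in PND2R, 19.9 ± 1.66 in PND2N and 19.8 ± 2.18 in PND0 (SD, n = 4 each).

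**Figure D2:**
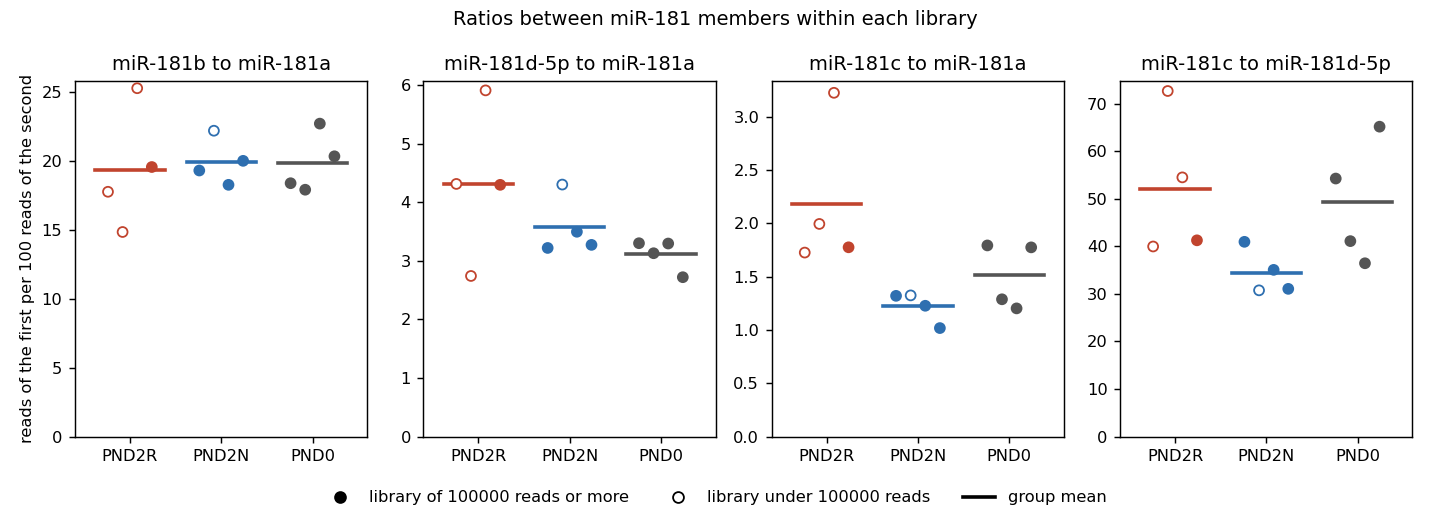
Reads of the first member per 100 reads of the second, within each library, by group, with the group mean as a line and open points for libraries under 100000 reads. The ratio of miR-181c to miR-181a is 1.73 to 3.23 in PND2R and 1.02 to 1.32 in PND2N without overlap, and that of miR-181b to miR-181a has means between 19.4 and 19.9 in the 3 groups. PND2R replicates 1 to 3 held 12 to 16 reads of miR-181c, and PND2N replicate 2 held 4.

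In replacer-fed against nursed gilts, miR-181c had the widest separation of the family but did not pass the test. limma on log2(rpm + 10), fitted to all 268 rows and 12 libraries, gave it a log2 fold change of 0.73 ± 0.26 (SE), with a 95% interval from 0.18 to 1.27 and an adjusted p of 0.272 (limma, Benjamini-Hochberg). It had the 13th smallest p of the 268 rows, of which 0 passed (0%) and 35 had an unadjusted p under 0.05 (13.1%). All 4 PND2R libraries lay above all 4 PND2N libraries in 14 of the 268 rows (5.22%), miR-181c among them. By edgeR's quasi-likelihood test on recovered reads the log2 fold change was 0.52 with an adjusted p of 0.614, and 0 of 268 rows passed (0%), with 20 at an unadjusted p under 0.05 (7.46%). With the reads of each group pooled, its levels were 208 rpm in PND2R, nearly all from replicate 4, and 162 rpm in PND2N, a smaller gap than between the group means. With DESeq2 the log2 fold change and its adjusted p were 0.55 and 0.725. The median over all rows was 0.15 on the main scale, so the difference of miR-181c relative to the other miRNAs is smaller by that amount.

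The other members had small differences in this comparison and 0 of the 6 rows passed. The log2 fold change of the main miR-181a row was -0.022 ± 0.19 (interval -0.43 to 0.39, adjusted p = 0.951 by limma). That of the main miR-181b row was -0.087 ± 0.17 (interval -0.45 to 0.28, adjusted p = 0.820). miR-181d-5p was at 0.20 ± 0.23 (interval -0.29 to 0.70, adjusted p = 0.724). These intervals reach a 1.62-fold higher level for miR-181d-5p and a 1.31-fold higher level for miR-181a, so differences of such sizes are not shown to be absent. Depth partly coincides with feeding, since 3 of the 4 PND2R libraries are shallow. Without the 4 libraries under 100000 reads, which leaves 1 PND2R animal that is assumed to vary like the other groups, the log2 fold change of miR-181c was 0.59 (adjusted p = 0.998) and those of miR-181a and miR-181b were 0.037 and 0.065.

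In nursed gilts against newborns, 6 of 6 rows lay below 0, and 0 passed. The median over the 6 rows was -0.31 and that over all 268 rows was -0.20, with 201 rows below 0. The paired rows of miR-181a and miR-181b repeat nearly the same reads, so the family median stands mostly for these names. miR-181c had the largest difference in the family, at -0.57 ± 0.26 (interval -1.12 to -0.020, adjusted p = 0.537 by limma). By edgeR it was at -0.36 (adjusted p = 0.989), and with the reads of each group pooled its levels were 162 rpm in PND2N and 172 rpm in PND0, where deep libraries weigh most. miR-181a was at -0.31 ± 0.19 (adjusted p = 0.653) and miR-181b at -0.30 ± 0.17 (adjusted p = 0.653), while edgeR gave -0.15 and -0.14 (adjusted p = 0.989 for both). miR-181d-5p was at -0.12 ± 0.23 (adjusted p = 0.866), and edgeR gave 0.024, of the other sign. limma passed 0 of 268 rows (0%), with 22 at an unadjusted p under 0.05 (8.21%), and edgeR 0 (0%) with 17 (6.34%). Without the 4 shallow libraries miR-181a was at -0.19 and miR-181c at -0.49.

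In replacer-fed gilts against newborns the family split: 4 rows, those of miR-181a and miR-181b, lay below 0, and miR-181d-5p and miR-181c lay above, and 0 of 6 passed. The main miR-181b row was at -0.39 ± 0.17 (interval -0.75 to -0.027, adjusted p = 0.389 by limma), and by edgeR at -0.37 (adjusted p = 0.460). miR-181a was at -0.34 ± 0.19 (interval -0.75 to 0.076, adjusted p = 0.607) and by edgeR at -0.31 (adjusted p = 0.721). miR-181c was at 0.16 ± 0.26 (adjusted p = 0.867) and miR-181d-5p at 0.086 ± 0.23 (adjusted p = 0.929). The median over the 6 rows was -0.34 against -0.076 over all 268. It is set by the paired rows of miR-181a and miR-181b, which count nearly the same reads again, and does not describe the family by name. Of the 268 rows limma passed 0 (0%), with 29 at an unadjusted p under 0.05 (10.8%), and edgeR 0 (0%) with 28 (10.4%). Without the 4 shallow libraries miR-181a was at -0.15 and miR-181b at -0.16. This comparison and the one of nursed gilts share the PND0 libraries.

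**Figure D3:**
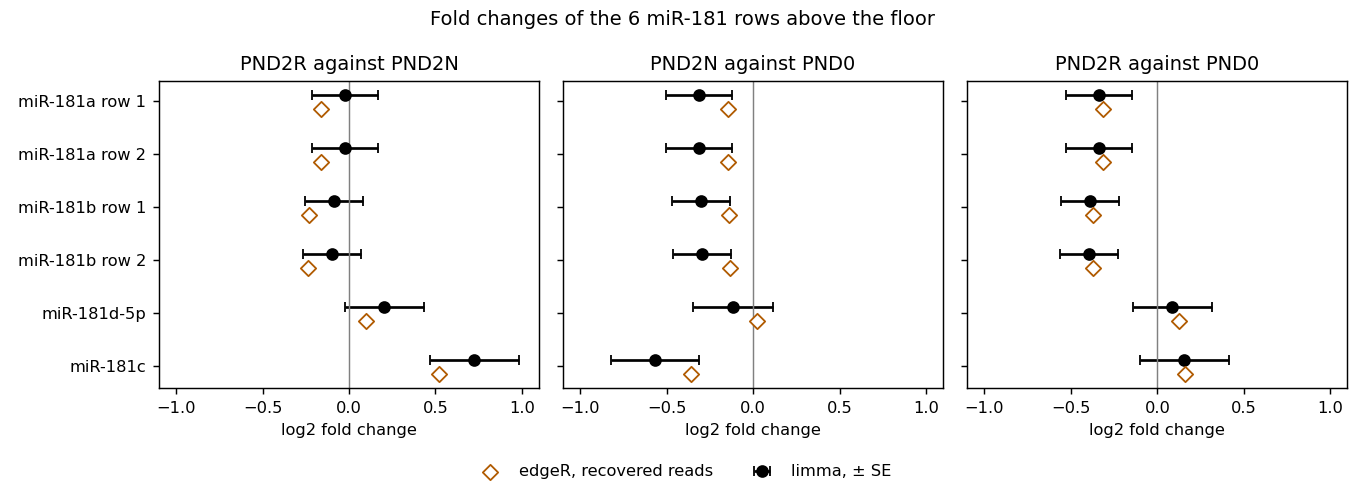
Log2 fold changes of the 6 tested miR-181 rows in the 3 comparisons, by limma with its standard error (black) and by edgeR on recovered reads (open diamonds). miR-181c is at 0.73 for PND2R against PND2N and at -0.57 for PND2N against PND0, and none of the 18 values passed at an adjusted p under 0.05.

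The levels of miR-181a, miR-181b and miR-181d-5p also differed with depth. In the 5 libraries over 1000000 reads miR-181a ranged from 11717 to 15915 rpm, and in the other 7 from 7751 to 12126 rpm. For miR-181b these ranges were 2280 to 3004 and 1704 to 2285 rpm. For miR-181d-5p they were 413 to 504 and 305 to 468 rpm, with medians of 437 and 347 rpm. For miR-181c they were 153 to 208 and 94.8 to 250 rpm, with the deep libraries inside the range of the others. The 5 deep libraries are 1 PND2R, 2 PND2N and 2 PND0 animals, and the part of depth in the group differences was not tested.

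**Figure D4:**
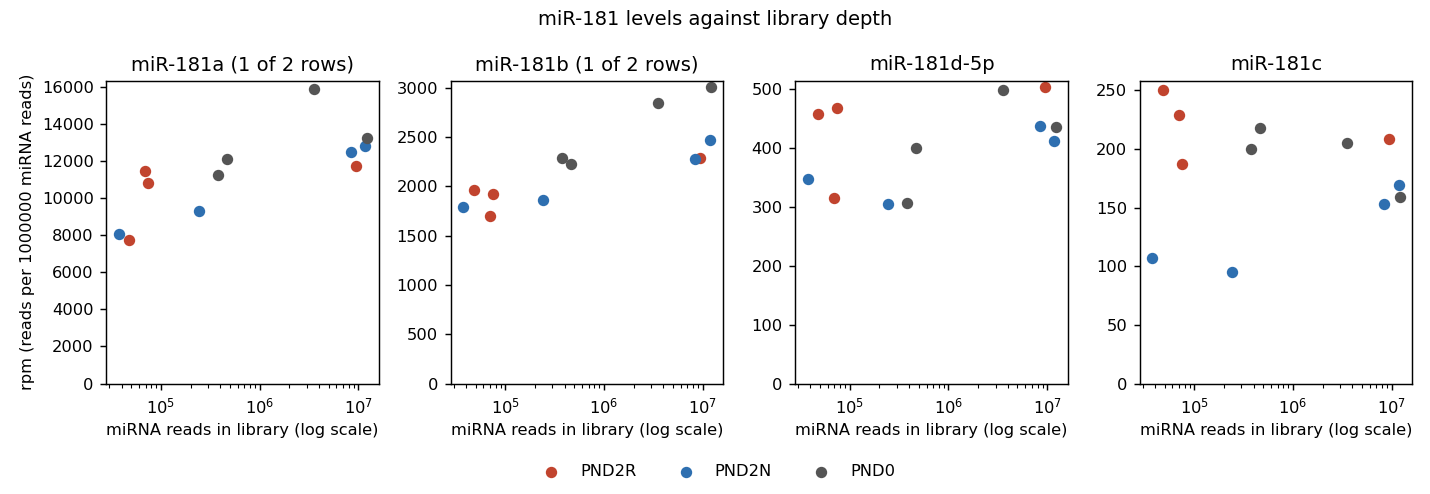
Levels of the 4 expressed miR-181 names against the number of miRNA reads in the library (log scale), coloured by group. The lowest values of miR-181a and miR-181b are in libraries under 100000 reads, but PND2N replicate 4 (242550 reads) lies below some of these. miR-181c of PND2R lies above that of PND2N, with only 1 PND2N library under 100000 reads and 1 PND2R library over 1000000. That PND2N library held 4 reads of miR-181c (exact 95% interval 29.1 to 273 rpm). The part of depth was not tested.

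Markers of cell types known to hold miR-181 or to differ between uteri were set beside these values. Leukocyte miRNAs (6 rows tested, 3 at the floor throughout) summed to 458 to 616 rpm in PND2R, 214 to 500 in PND2N and 452 to 585 in PND0. This sum takes both rows of miR-146a-5p, so reads that they share can count again. The PND2R and PND0 ranges nearly coincided and the PND2N range reached lower, and the part of these miRNAs in the miR-181c values was not tested. The most abundant was miR-155-5p, an activated lymphocyte and macrophage miRNA, at 309 ± 54.6 rpm in PND2R, 234 ± 96.2 in PND2N and 310 ± 43.0 in PND0. miR-150, a mature lymphocyte miRNA, stood at 66.1 ± 25.6 rpm in PND2R, 52.8 ± 19.7 in PND2N and 49.0 ± 8.74 in PND0. Endothelial miRNAs (5 rows) summed to 10442 to 12821 rpm in PND2R, 11004 to 14708 in PND2N and 12924 to 16354 in PND0. miR-126-3p, the defining miRNA of endothelium, stood at 10415 ± 1034 rpm in PND2R, 11087 ± 1595 in PND2N and 13620 ± 1407 in PND0. miR-221-3p, also of this list, stood at 642 ± 59.2 rpm in PND2R, 487 ± 231 in PND2N and 675 ± 98.0 in PND0. The sum of the list is carried by miR-126-3p, and its median log2 fold change in PND2R against PND2N was 0.17, where miR-126-3p was at -0.085. The part of these miRNAs in the miR-181a values was not tested.

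Of the further lists, red cell miRNAs (3 rows) summed to 170 to 473 rpm in PND2R, 94.9 to 460 in PND2N and 335 to 554 in PND0. Of the 7 names in the epithelial list, only miR-205 and miR-429 had a row. These 2 rows summed to 688 to 1070.1 rpm in PND2R, 320 to 1061 in PND2N and 857 to 1135 in PND0. Striated muscle miRNAs (8 rows tested) summed to 3094 to 4840 rpm in PND2R, 2990 to 5153 in PND2N and 2312 to 3374 in PND0. Neural ones (10 rows) summed to 3380 to 4448 rpm in PND2R, 3710 to 5455 in PND2N and 3208 to 4710 in PND0. These sums take all precursor rows, so reads shared by the rows of miR-133a, miR-9, miR-128, miR-7 or miR-124a can count again. In all 7 lists, limma called 0 rows in each direction in each of the 3 comparisons. It also called 0 of all 268 rows (0%), so these counts say nothing about single lists. In PND2R against PND2N the median log2 fold change was 0.57 for leukocyte, 0.45 for epithelial and 0.33 for smooth muscle and mesenchymal rows. It was 0.29 for striated muscle, 0.17 for red cell and -0.075 for neural rows, and 0.15 over all 268 rows. Repeated rows of 1 miRNA enter these medians separately, as both rows of miR-146a-5p do in the leukocyte list.

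The rows outside the family whose log2 level followed miR-181a most closely over the 12 libraries, among 154 rows above the floor throughout, were both rows of miR-340 (Pearson r = 0.861), miR-107 (0.785) and both rows of miR-199a-5p (0.782). miR-340 stood at 1230.3 ± 295 rpm in PND2R, 1231 ± 301 in PND2N and 1372 ± 155 in PND0. miR-199a-5p, a mesenchymal miRNA, stood at 21290 ± 4762 rpm in PND2R, 20846 ± 8945 in PND2N and 22810 ± 6931 in PND0. Within the family miR-181a followed miR-181b (0.754) more closely than miR-181d-5p (0.355) or miR-181c (0.283), and miR-181c and miR-181d-5p had 0.406. All these correlations share the depth and scaling of the libraries and are given as descriptions.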

How the data were processed

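Per the labels' protocols, column-purified total RNA of each uterus (500 ng) was made into a NEBNext small RNA library with 6 PCR cycles and sequenced as 50 bp single ends. Sscrofa 10.2 and FastQC are listed in the submitters' processing notes; for aligner, counter and normalization the sources used here give nothing. The authors deposited a normalized signal for 420 miRNA rows. Its values behave as read counts over a library factor, with anything under 1 set to 1 (the floor). The size of 1 read was estimated per library from its low values, which gave whole reads, within 0.1 read, for 100% of values of at most 1000 reads and for no less than 96.3% of all non-floor values. Floor values counted as 0 reads.

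The main test, limma 3.58.1 with trend (R 4.3.3, two-sided), was fitted to log2(rpm + 10) of all 12 libraries with 9 residual degrees of freedom. It covered 268 rows, those with 4 or more libraries off the floor, and p was adjusted over all of them (threshold 0.05). The pseudocount of 10 makes fold changes understate those of low rows. The fixed design called for this share of the library total because the deposited totals follow depth. edgeR 4.0.16, limma voom and DESeq2 1.42.0 ran on recovered reads. The scripts were tested on simulated data. Members, lists, tests and the rule for named miRNAs (all members, the 5 rows most like miR-181a, up to 2 markers per list) were chosen with earlier results of these data known. Mature sequences were not used here, so rows outside the family that share its seed were not searched for. Related members can share reads. Replicates are separate gilts, numbered in accession order. The labels name no molecular identifiers, so intervals cover counting error only.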

Additional observations from a re-analysis of the deposited data

How the results depend on the processing

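None of the 18 fold changes (6 miR-181 rows in 3 comparisons) passed under any alternative fit, which gave 684 values over the 18 together. The smallest adjusted p was 0.183, by limma for miR-181c in PND2R against PND2N without PND2N replicate 1. Over the alternatives the log2 fold change of miR-181c ranged from 0.41 to 0.85 in PND2R against PND2N. In PND2N against PND0 it ranged from -0.95 to -0.21. The values printed next changed sign, and the cause was not tested. In PND2R against PND2N without the 4 libraries under 100000 reads, the miR-181a rows were at 0.037 and 0.036 and the miR-181b rows at 0.065 and 0.056. With 1 library left out the miR-181a rows ranged from -0.24 and -0.24 (by edgeR) to 0.12 and 0.12, with limma's lowest at -0.15 and -0.15. miR-181d-5p in that comparison was at -0.029 on deposited values and ranged from -0.024 (edgeR without PND2R replicate 4) to 0.35 with 1 library left out. In PND2N against PND0 it was at 0.18 with quantile normalization, 0.024 with edgeR, 0.011 with edgeR's RLE factors, 0.0021 with DESeq2, 0.038 with voom and 0.018 with edgeR without the 4 shallow libraries. There, edgeR gave 0.013, 0.018 and 0.096 without PND2N replicates 1, 2 and 4, 0.032, 0.023, 0.024 and 0.023 without PND2R replicates 1 to 4, and 0.020 and 0.14 without PND0 replicates 1 and 2; the range with 1 library left out was -0.25 to 0.14. In PND2R against PND0 it was at -0.52 on deposited values, -0.044 without PND0 replicate 4 and -0.00088 by edgeR without PND2R replicate 4, with an upper end of 0.23. miR-181c was at -0.44 there on deposited values, where the median of all rows was -0.58 and miR-181a was at -0.94.

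The count of called rows among all rows tested (160 to 286, by the fit) stayed at 0 under the other alternatives. With 1 library left out it ranged from 0 to 3 in PND2R against PND2N, where miR-129a-5p, miR-129b and miR-490-5p passed without PND2R replicate 4, and from 0 to 1 in PND2N against PND0, where miR-206 passed by edgeR without PND2N replicate 3. Summed over all precursor rows, which counts shared reads again, the family took 2.55% in PND2R, 2.604% in PND2N and 3.20% in PND0. The edgeR fits without libraries were chosen after seeing the data. No paired analysis was possible because the replicate numbers follow accession order and pair no animals. Depth limits miR-181c and miR-181d-5p most, with 4 to 35 reads in the shallow libraries.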
